A study of Mus musculus with 72 samples.

Results

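The livers of mice irradiated with 1 Gy were compared with the livers of unirradiated mice by mRNA microarray 48 h after exposure. All samples labelled as liver mRNA at 0 Gy or 1 Gy were taken, which gave 6 of the 72 arrays of the series, 3 mice per dose. All mice were female C57BL/6 J, aged 6 to 8 weeks. The 1 Gy mice received a single whole body surface dose of X-rays at 1.05 Gy/min, and the 0 Gy mice were sham irradiated in the same type of container. The controls carried the labelled numbers 1, 11 and 21 and the 1 Gy mice the numbers 2, 12 and 22, and values of single mice are given in that order below. Livers at 2 Gy (mice 3, 13 and 23), lungs at 0 and 1 Gy and the miRNA arrays of the same livers were used for comparison. The samples were powdered whole tissue, so a lower level can come from fewer cells of a type or from less RNA per cell, and these cannot be told apart.

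Ionizing radiation breaks DNA, and the breaks stabilize the transcription factor p53, which switches on genes that stop the cell cycle, repair DNA or start cell death. Most hepatocytes are resting cells that rarely divide. Dividing blood cell precursors and lymphocytes are among the most radiosensitive cells of the body, and whole liver samples also hold blood.

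The 6 arrays had 47.7% to 54.0% of their spots well above background and no saturated spot. Across probes, the 0 Gy arrays correlated with each other at 0.990 to 0.992 and the 1 Gy arrays at 0.982 to 0.985. All 15 hepatocyte genes listed, among them the genes of albumin and apolipoproteins, were well above background on all 6 arrays. Their summed level lay between 3890000 and 3970000 in the controls and between 3900000 and 3980000 at 1 Gy, as linear normalized intensity. The 6 arrays shared one slide. Lung epithelial genes were looked up in the livers, and a few stood out in single mice. Scgb1a1, a secretory protein of airway cells, stood at 10.82, 9.04 and 5.64 in the controls and at 5.56, 5.41 and 5.69 at 1 Gy, and Sftpc, a surfactant protein, at 9.03, 7.00 and 5.39 and at 4.18, 4.60 and 5.61 (log2 normalized intensity). Control mice 1 and 11 were the high ones for these 2 genes. Sftpb was 7.73 in 1 Gy mouse 2 and 4.53 or less in the other 5 livers. Among other lung genes, Sftpd lay between 6.76 and 7.09 in all 6 livers and the brightest Ager probe differed by 0.17 between the groups. A dimmer Ager probe stood at 6.64, 6.38 and 6.02 in the controls and at 5.76, 5.53 and 5.50 at 1 Gy. The remaining Ager probes differed by -0.59, -0.35 and -0.07, and Sftpa1 differed by -0.64. These genes were chosen after their values were seen, and their part in the results was not tested. Counts of called probes without each of these mice are given below.

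Few probes passed the thresholds at 1 Gy. Of 38362 probes tested, 13 (0.0339%) met |log2FC| > 1 with an adjusted p below 0.05 (limma, Benjamini-Hochberg over all probes), the criteria for a called change here. Of these, 8 (0.0209%) were lower and 5 (0.013%) were higher at 1 Gy. The lower probes were 5 probes of globin genes and single probes of Zdhhc22, Map4k1 and Cyp26b1. The higher probes were those of Cdkn1a, Phlda3, Tbata, the long non-coding RNA Gm35472 and 1 unnamed transcript. With no limit on the fold change, 16 probes (0.0417%) had an adjusted p below 0.05, which added, among others, Hamp and 1 probe of a long intergenic RNA on chromosome 4. The number depended on single mice. Cdkn1a and Zdhhc22 kept an adjusted p below 0.05 whichever 1 of the 6 mice was left out, and each of the other probes lost it without at least 1 mouse. There were 57 called probes without control mouse 1, 2 without control mouse 11 and 2 without control mouse 21. There were 23 without 1 Gy mouse 12, 5 without 1 Gy mouse 22 and 15 without 1 Gy mouse 2. With the 0 and 1 Gy arrays fitted alone, 0 probes were called in limma, 2339 had an unadjusted p below 0.05, and the adjusted p of Cdkn1a was 0.214. At an unadjusted p below 0.05 there were in the fit of all doses 2713 probes, 1286 lower and 1427 higher, and the median log2 fold change of all probes was 0.01.

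**Figure D1:**
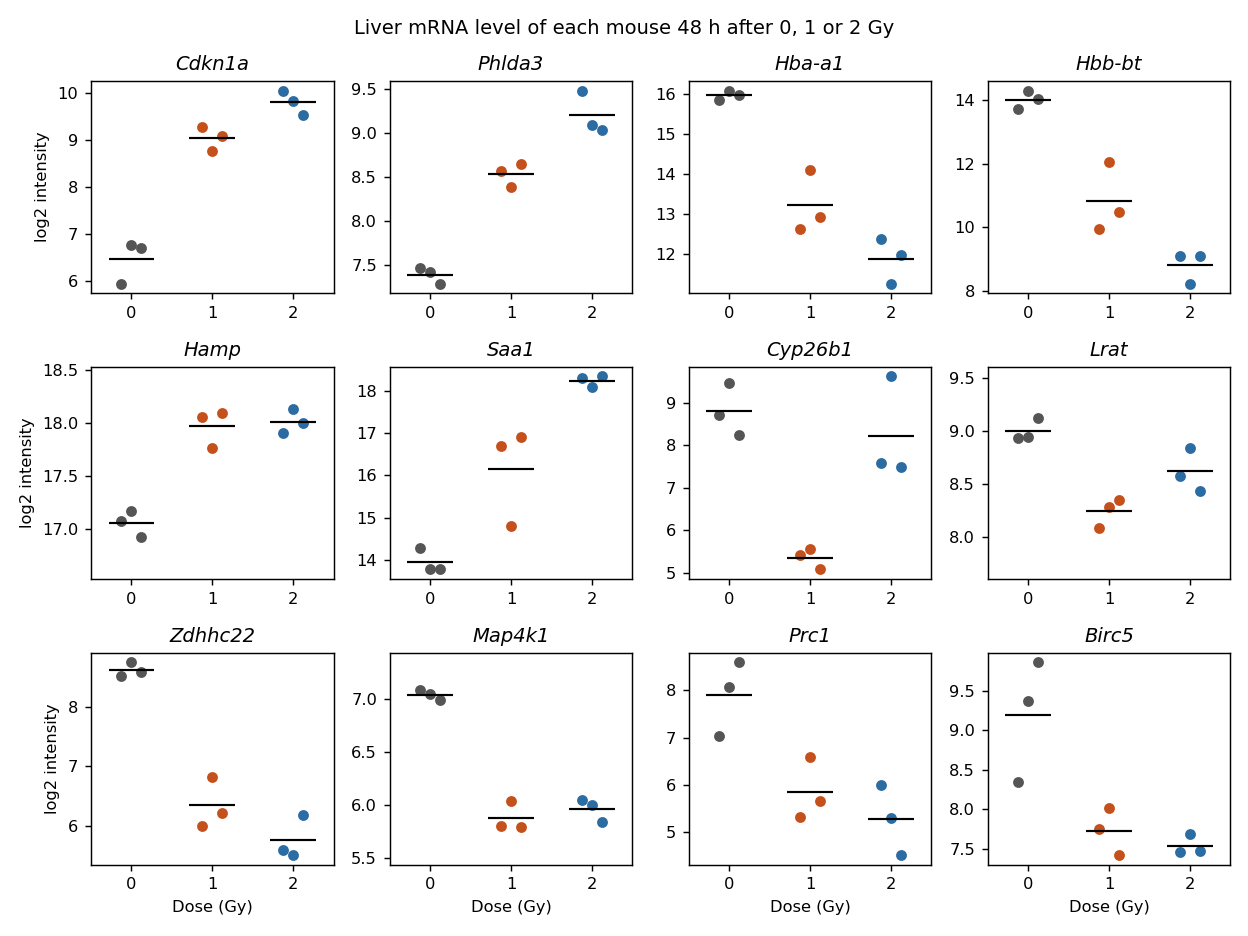
Liver mRNA level (log2 normalized intensity, vertical axis, each panel on its own scale) of single mice against dose in Gy (horizontal axis) for 12 genes. Points are mice, 3 per dose, and bars are the group means. Cdkn1a rises from 0 to 1 Gy by 2.58 on the log2 scale, and Cyp26b1 is low at 1 Gy and is at or above 7.48 in all 3 of the 2 Gy mice.

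The smallest adjusted p was shared by Zdhhc22 and Cdkn1a. Cdkn1a encodes the cyclin dependent kinase inhibitor p21 and is the best known growth arrest target of p53. Its log2 intensity was 5.94, 6.76 and 6.70 in the controls and 9.29, 8.76 and 9.10 at 1 Gy. Each irradiated mouse was at least 2 units above the control mean, and the groups did not overlap. The gene lies on chromosome 17 at 29090979 to 29100722 (GRCm38.p6, as are all gene positions here). The increase was 2.58 on the log2 scale (SE 0.242, limma adjusted p = 0.000742), a 5.98-fold change. A second Cdkn1a probe was not well above background in any control. It was at least 2.37-fold higher at 1 Gy, with an adjusted p of 0.05 in limma that did not pass the threshold.

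The promoter of Cdkn1a is shown because it held a close match to the p53 binding site. For each promoter printed here and below, the first window of the gene with a match was taken, and distances to other annotated starts were not measured. The window runs from 250 bases before to 50 bases after the annotated start (RefSeq, GRCm38.p6, chr17:29090729-29091028, plus strand), and capitals mark the match, whose first base lies 51 bases before the start.
Cdkn1a: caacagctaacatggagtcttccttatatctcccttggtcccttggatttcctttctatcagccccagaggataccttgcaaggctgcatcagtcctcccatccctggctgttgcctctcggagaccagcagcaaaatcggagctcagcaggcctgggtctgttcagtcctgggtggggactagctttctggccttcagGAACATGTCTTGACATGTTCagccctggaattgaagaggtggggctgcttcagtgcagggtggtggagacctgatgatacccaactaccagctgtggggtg
The p53 site was searched as 2 adjoining motifs of 10 bases with at most 1 of the 20 bases off. It occurred in 29 of 27025 genes (0.107%) and in 4 of the 15 growth arrest p53 targets with a promoter in the table (26.7%), Ccng1, Cdkn1a, Gtse1 and Rps27l. This definition was set after a stricter search, with no base off and up to 13 bases between the motifs, had matched 20 of the 27025 genes and 1 of the 15 targets. In all, 12 motifs were searched, chosen with the gene list results known. Of the 4 genes with a match, Cdkn1a rose, while Ccng1, a cyclin that takes part in p53 feedback, was 0.62 higher on the log2 scale with an unadjusted p of 0.00704 (limma adjusted p = 0.534). Rps27l was 0.11 higher (adjusted p = 0.915) and Gtse1 had a log2 fold change of -0.37 (adjusted p = 0.928), both in limma.

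Phlda3 (chromosome 1, 135766085 to 135769134), a p53 target that restrains Akt signalling, also rose. Its log2 intensity was 7.46, 7.42 and 7.29 in the controls and 8.57, 8.39 and 8.65 at 1 Gy, an increase of 1.14 (SE 0.143, limma adjusted p = 0.0103). Its adjusted p was above 0.05 without control mouse 11, control mouse 21 or 1 Gy mouse 22. Eda2r, a receptor of the tumour necrosis factor family that p53 induces, was not well above background in any control and was above it in all 3 mice at 1 Gy. It was at least 2.41-fold higher (limma adjusted p = 0.14), so it did not pass the test. The spread of Cdkn1a and Phlda3 within a group was under 0.5 log2 units in SD, well below their change.

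Few other p53 targets passed a test. Of 18 growth arrest and survival targets tested, 4 were higher and 0 lower at an unadjusted p below 0.05, against 3.95% of 18160 genes that were higher and 4.14% that were lower. The 4 were Cdkn1a, Phlda3, Ccng1 and Trp53inp1 (0.49 higher), and the first 2 of them had an adjusted p below 0.05. The groups did not overlap in 7 genes, all higher, against 7.92% of all genes. The median log2 fold change of the list was 0.13, and that of all genes was 0. Mdm2, which encodes the ubiquitin ligase that degrades p53, was 0.14 higher (limma adjusted p = 0.93). Of 13 cell death targets, 4 were higher, namely Eda2r, Ei24, Dcxr and Bax, the pore former of mitochondrial apoptosis (0.33 higher, limma adjusted p = 0.687), and none had an adjusted p below 0.05. Bbc3, which encodes the death inducer Puma, had a log2 fold change of -0.45 (adjusted p = 0.721 in limma). Of 9 DNA repair targets, only Polk passed the unadjusted threshold, 0.34 higher.

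The globin genes, which encode the protein chains of hemoglobin and are used by red cell precursors, had the lowest median log2 fold change of the lists examined. Hba-a1 (chromosome 11, 32283672 to 32284486) stood at 15.85, 16.09 and 15.97 in the controls and at 12.64, 14.10 and 12.92 at 1 Gy. Hbb-bt (chromosome 7, 103812524 to 103813923) stood at 13.70, 14.28 and 14.02 in the controls and at 9.94, 12.04 and 10.49 at 1 Gy. Hbb-b2 stood at 12.46, 12.74 and 12.61 in the controls and at 9.16, 10.52 and 9.37 at 1 Gy. In all 3 genes the controls lay within 0.6 units of each other, while 1 Gy mouse 12 kept the highest level of its group. The log2 fold changes were -2.75 for Hba-a1 (SE 0.388, adjusted p = 0.0244), -3.18 for Hbb-bt (SE 0.448, adjusted p = 0.0244) and -2.92 for Hbb-b2 (SE 0.372, adjusted p = 0.0103) in limma. Hba-a2 fell by 2.85 (limma adjusted p = 0.0256), and Hbb-b1 had a log2 fold change of -2.74 with an adjusted p of 0.05 that did not pass. Hba-a1 and Hba-a2 are near-identical copies, as are the beta globin genes, so their probes may read each other's transcripts. Hbb-b1 and Hbb-b2 are names from another mouse haplotype than that of C57BL/6, which carries Hbb-bs and Hbb-bt.

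Promoters of 1 alpha and 1 beta globin gene are printed to show the CACCC and CCAAT boxes, short elements known from globin promoters, in capitals on either strand. Hba-a2 lies at chr11:32296242-32296541 on the plus strand and Hbb-bt at chr7:103813874-103814173 on the minus strand (RefSeq, GRCm38.p6).
Hba-a2: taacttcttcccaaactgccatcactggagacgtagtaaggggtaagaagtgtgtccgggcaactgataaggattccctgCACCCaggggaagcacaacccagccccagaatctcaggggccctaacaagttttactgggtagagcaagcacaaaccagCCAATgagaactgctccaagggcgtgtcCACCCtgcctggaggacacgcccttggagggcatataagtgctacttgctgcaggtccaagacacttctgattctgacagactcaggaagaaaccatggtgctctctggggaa
Hbb-bt: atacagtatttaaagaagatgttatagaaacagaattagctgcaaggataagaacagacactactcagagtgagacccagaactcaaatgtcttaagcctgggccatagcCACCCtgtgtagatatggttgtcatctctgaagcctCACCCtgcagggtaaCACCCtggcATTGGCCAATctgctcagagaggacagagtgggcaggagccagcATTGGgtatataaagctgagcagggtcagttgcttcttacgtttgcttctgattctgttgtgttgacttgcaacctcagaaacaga
CACCC was present in all 6 globin promoters of the table and in 59.8% of all genes. CCAAT was present in 5 of the 6 and in 41.1% of all genes.

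Of 7 globin genes tested, 5 were lower at an unadjusted p below 0.05, against 4.14% of all genes. Called were 4 of them, against 0.0339% of all probes. The embryonic genes Hbb-y and Hba-x were near background and differed by 0.16 and 0.20. The median log2 fold change of the list was -2.75. The number with an adjusted p below 0.05, 4, was 0 without control mouse 11, control mouse 21 or 1 Gy mouse 22, 1 without 1 Gy mouse 2 or with slide as a term, and 0 with the 0 and 1 Gy arrays fitted alone, while 5 genes passed the unadjusted threshold in each case. The summed level of the globin probes was 164000 to 190000 in the controls and 16600 to 48700 at 1 Gy, with the highest irradiated value in mouse 12. Slc4a1, the anion exchanger of the red cell membrane, was well above background in 2 of 3 controls and in no irradiated mouse, at least 2.58-fold lower (limma adjusted p = 0.108). Of the 15 erythroid membrane and factor genes tested, 3 were lower and 1 higher at an unadjusted p below 0.05. The shares of all genes were 4.14% and 3.95%, and the list median was -0.10. The higher erythroid gene was Epb42, a protein under the red cell membrane, at least 1.22-fold higher. Alas2, the erythroid enzyme of the first step of heme synthesis, had a log2 fold change of -0.57 (limma adjusted p = 0.596). It was the only one of 9 heme enzymes to pass the unadjusted threshold, in the lower direction (4.14% of all genes).

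Hamp encodes hepcidin, the liver hormone that lowers iron uptake and release by closing the exporter ferroportin. Hamp lies on chromosome 7 at 30942368 to 30944029. Its log2 intensity was 17.08, 17.18 and 16.93 in the controls and 18.06, 17.76 and 18.10 at 1 Gy, with no overlap between groups. The increase was 0.91 (SE 0.11, limma adjusted p = 0.00852), a 1.88-fold change just below the 2-fold limit for a call. Its adjusted p was above 0.05 without control mouse 21, and also with 75th percentile scaling, the processed signal, the deposited series values, liver and lung together, and the 0 and 1 Gy arrays alone. Of 18 iron handling genes, Hamp and Id1 (0.89 higher, adjusted p = 0.506 in limma) were higher and Fth1, the ferritin heavy chain, had a log2 fold change of -0.23 at an unadjusted p below 0.05. At that threshold 3.95% of all genes were higher and 4.14% lower. Bmp6, an inducer of hepcidin, had a log2 fold change of -0.34 (limma adjusted p = 0.832). Slc40a1, the gene of ferroportin, was 0.16 higher (limma adjusted p = 0.865).

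Acute phase genes, which hepatocytes raise in inflammation, were higher in the irradiated mice in several cases. Saa1, the gene of serum amyloid A, was 14.28, 13.79 and 13.78 in the controls and 16.71, 14.81 and 16.91 at 1 Gy. Mice 2 and 22 lay well above mouse 12, and all 3 lay above the controls. The log2 fold change was 2.19 (SE 0.401, limma adjusted p = 0.0889), and that of the near-identical Saa2 was 2.23 (limma adjusted p = 0.14), neither past the threshold. Of 16 acute phase genes, 5 were higher and 0 lower at an unadjusted p below 0.05 (3.95% and 4.14% of all genes), which also took in Orm3 (0.72 higher), Serpina3n (0.38 higher) and Orm2 (0.31 higher), with a median of 0.13. None had an adjusted p below 0.05.

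The mitotic genes build the spindle and drive chromosome separation and cell division. Of 28 mitotic genes tested, 28 had a log2 fold change below 0 and 26 were lower at an unadjusted p below 0.05, against 4.14% of all genes. The median log2 fold change was -1.35. Of the 28 genes, 14 were well above background on all 6 arrays, so the changes of the others were measured partly near background. The groups did not overlap in 20 of the 28 genes, a pattern that 7.44% of all genes showed in the lower direction. No member had an adjusted p below 0.05. In the controls the genes varied widely, since the median deviation from the control mean was -0.73 in mouse 1, 0.17 in mouse 11 and 0.63 in mouse 21. In the irradiated mice it was -1.34, -1.07 and -1.57. Without control mouse 1, 17 members had an adjusted p below 0.05.

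Prc1, which crosslinks the microtubules of the dividing spindle, was 7.04, 8.08 and 8.60 in the controls and 5.31, 6.58 and 5.66 at 1 Gy. It had a log2 fold change of -2.06 (SE 0.417, limma adjusted p = 0.14). Kif23, a motor protein needed for the final split of daughter cells, was 5.69, 6.55 and 6.26 in the controls and 5.20, 5.14 and 5.01 at 1 Gy. It had a log2 fold change of -1.05 (SE 0.19) and had the smallest adjusted p of the list, 0.0867 in limma. At 1 Gy Kif23 was well above background in 1 of 3 mice, so the size of its change is uncertain. Birc5, the gene of survivin, was 8.35, 9.37 and 9.86 in the controls and 7.75, 8.02 and 7.42 at 1 Gy, with a log2 fold change of -1.47 (limma adjusted p = 0.119). A second Birc5 probe differed by 0.57 in the other direction (limma adjusted p = 0.966). Melk, a mitotic kinase, was at least 2.57-fold lower, Aurkb, the kinase of the chromosome passenger complex, at least 2.13-fold and Tpx2, a spindle assembly factor, at least 3.07-fold, with none of the irradiated mice well above background. Rrm2, a subunit of ribonucleotide reductase, had a log2 fold change of -0.07 (limma adjusted p = 0.992).

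Promoters of 3 mitotic genes are printed because the letters TTTGAA, the core of the cell cycle homology element, and CCAAT were common in the list. Capitals mark both on either strand in Prc1 (chr7:80294201-80294500, plus strand), Kif23 (chr9:61946750-61947049, minus strand) and Plk1 (chr7:122159185-122159484, plus strand), all RefSeq GRCm38.p6.
Prc1: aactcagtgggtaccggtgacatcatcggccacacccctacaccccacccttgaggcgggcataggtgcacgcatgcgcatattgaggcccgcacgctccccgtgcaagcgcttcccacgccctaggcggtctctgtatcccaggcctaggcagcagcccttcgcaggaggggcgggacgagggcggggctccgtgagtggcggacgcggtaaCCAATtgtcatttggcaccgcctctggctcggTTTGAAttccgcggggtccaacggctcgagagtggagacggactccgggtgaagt
Kif23: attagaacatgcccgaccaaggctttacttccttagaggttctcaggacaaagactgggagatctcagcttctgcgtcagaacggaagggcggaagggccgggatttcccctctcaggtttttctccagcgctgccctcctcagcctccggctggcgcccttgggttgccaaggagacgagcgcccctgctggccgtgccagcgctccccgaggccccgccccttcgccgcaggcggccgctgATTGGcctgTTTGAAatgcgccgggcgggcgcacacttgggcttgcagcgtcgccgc
Plk1: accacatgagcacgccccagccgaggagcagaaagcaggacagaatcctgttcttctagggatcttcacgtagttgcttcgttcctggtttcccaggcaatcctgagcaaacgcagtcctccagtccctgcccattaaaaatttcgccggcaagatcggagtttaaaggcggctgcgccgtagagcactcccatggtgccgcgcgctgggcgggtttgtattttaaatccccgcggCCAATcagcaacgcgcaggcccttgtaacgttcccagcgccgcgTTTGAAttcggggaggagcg
TTTGAA was found in 15 of the 22 mitotic genes with a promoter in the table (68.2%), in 2 of 15 DNA replication genes (13.3%) and in 20.2% of all genes. CCAAT was found in 17 of the 22 mitotic genes and 41.1% of all genes. In Prc1 TTTGAA began 5 bases before the start and in Kif23 2 bases after it.

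The DNA replication genes, which load and run the copying machinery in S phase, were tested as a separate list. Of 20 genes, 1 was lower at an unadjusted p below 0.05, a share near the 4.14% of all genes. It was Mcm5, a subunit of the replicative helicase (log2 fold change -0.79, limma adjusted p = 0.62). The median of the list was -0.21. No member had groups that did not overlap in either direction, against 7.44% of all genes lower and 7.92% higher.

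**Figure D2:**
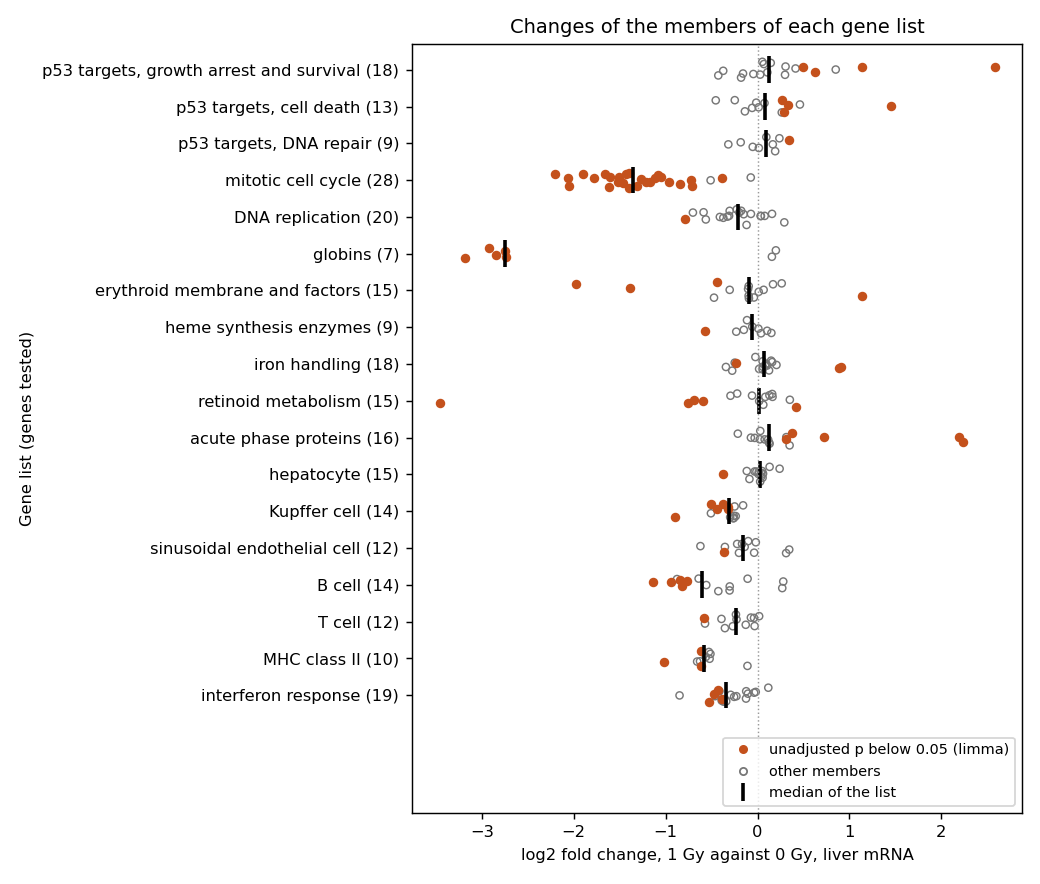
Log2 fold changes, 1 Gy against 0 Gy in liver (horizontal axis), of the members of 18 gene lists, 1 probe per gene, with the number of genes tested in parentheses. Filled points had an unadjusted p below 0.05 in limma, open points did not, and black bars are list medians. The globin and mitotic lists lie furthest to the left, with medians of -2.75 and -1.35, and the hepatocyte median is 0.03.

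Cyp26b1 encodes an enzyme that breaks down retinoic acid, the active form of vitamin A. Its log2 intensity was 8.70, 9.47 and 8.24 in the controls and 5.42, 5.54 and 5.07 at 1 Gy. The groups were far apart, and 1 of the 3 irradiated mice was not well above background. It fell by 3.46 (SE 0.546, limma adjusted p = 0.0435), an 11.0-fold difference. The gene lies on chromosome 6 at 84571414 to 84593908. The adjusted p was above 0.05 when any mouse but control mouse 1 was left out, with slide as a term (0.0659) and with no filter on dim probes (0.064). Among 15 retinoid genes, 4 passed an unadjusted p of 0.05 in the lower direction, against 4.14% of all genes. They included Cyp26b1, Lrat (which stores vitamin A as retinyl esters, log2 fold change -0.76, limma adjusted p = 0.103) and Rarb (a retinoic acid receptor, log2 fold change -0.60). Rdh10, which makes retinaldehyde from retinol, was 0.42 higher and its value in mouse 2 was missing after spot flags were applied. The median of the list was 0.02. Lrat also marks stellate cells, the vitamin A storing cells of the liver. It was the only one of 10 stellate cell genes lower at an unadjusted p below 0.05 (4.14% of all genes), and the list median was -0.03.

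Zdhhc22 (chromosome 12, 86980763 to 86990830), a palmitoyltransferase, fell by 2.27 on the log2 scale (SE 0.218, limma adjusted p = 0.000742). It stood at 8.52, 8.75 and 8.59 in the controls and at 6.01, 6.82 and 6.21 at 1 Gy. Map4k1 (chromosome 7, 28982050 to 29003279), a kinase of blood cell signalling, stood at 7.08, 7.05 and 7.00 in the controls and at 5.81, 6.04 and 5.80 at 1 Gy. It fell by 1.16 (SE 0.169, limma adjusted p = 0.0256). Tbata, named for expression in thymus, brain and testis, rose by 1.39 (limma adjusted p = 0.0353), with levels of 7.43, 7.62 and 7.23 in the controls and 8.99, 8.31 and 9.15 at 1 Gy. Its second probe differed by -0.01 (adjusted p = 0.997) in limma, but was well above background on only 1 control array and 0 irradiated arrays. Gm35472 rose by 1.07 (limma adjusted p = 0.0353), and the probe of transcript ENSMUST00000108229.1 rose by 1.16 (limma adjusted p = 0.0435). The calls of Map4k1, Tbata and Gm35472 were lost without control mouse 11, control mouse 21, 1 Gy mouse 2 or 1 Gy mouse 22, and that of the unnamed transcript was also lost without control mouse 1. Cdhr2, a cadherin of the brush border, was 1.08 higher with an adjusted p of 0.05 that did not pass.

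Markers of immune cells were counted by cell type, against 4.14% of all genes lower and 3.95% higher at an unadjusted p below 0.05. Of 14 B cell genes, 5 were lower and 0 higher at an unadjusted p below 0.05, and the median was -0.60. Fcmr, an IgM receptor of B cells, was 7.01, 7.40 and 7.46 in the controls and 6.10, 6.10 and 6.27 at 1 Gy, with a log2 fold change of -1.13 (SE 0.192, limma adjusted p = 0.0594). Cd79b, a part of the B cell receptor, had a log2 fold change of -0.94 (limma adjusted p = 0.44). With a background offset of 50, 8 B cell genes passed. The summed level of the list was 2110 to 2780 in the controls and 1440 to 1750 at 1 Gy. Of 12 T cell genes, 1, Cd4, was lower, with a log2 fold change of -0.58 (limma adjusted p = 0.622), a share near that of all genes. A second Cd4 probe was 0.20 higher (limma adjusted p = 0.905), but was well above background on only 1 array of each group. Of 10 NK cell genes 0 passed. Of 13 neutrophil genes, 3 were higher and none lower, among them S100a8 (0.78 higher) and S100a9 (0.64 higher), whose products form calprotectin.

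Kupffer cells are the resident macrophages of the liver. All 14 Kupffer genes had a log2 fold change below 0, and 6 were lower at an unadjusted p below 0.05, with a median of -0.31. The share of all genes for this and the lists below was 4.14% lower. Cd68, a macrophage marker, had a log2 fold change of -0.51 (limma adjusted p = 0.417), and Clec4f, a receptor found on Kupffer cells, had a log2 fold change of -0.32 (limma adjusted p = 0.579). Fcrls was at least 1.49-fold lower. The summed level of the list was 64100 to 70500 in the controls and 53200 to 56300 at 1 Gy. No Kupffer gene had an adjusted p below 0.05. With liver and lung arrays normalized together, 2 of the genes passed the unadjusted threshold and 1 had an adjusted p below 0.05. The 10 MHC class II genes, which present antigen to helper T cells, all had a log2 fold change below 0, with 3 lower at an unadjusted p below 0.05 and a median of -0.59. H2-Oa had a log2 fold change of -1.02 (limma adjusted p = 0.189). The list medians of the mice were 0.52, -0.27 and -0.11 in the controls and -0.20, -0.80 and -0.65 at 1 Gy, so the groups overlapped. Of 19 interferon genes, 4 were lower, with a median of -0.34, and Isg15 had a log2 fold change of -0.53 (limma adjusted p = 0.643). Of 12 sinusoidal endothelial genes 1 was lower, and of 15 hepatocyte genes 1, Apoa1, was lower (log2 fold change -0.38), with medians of -0.15 and 0.03.

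**Figure D3:**
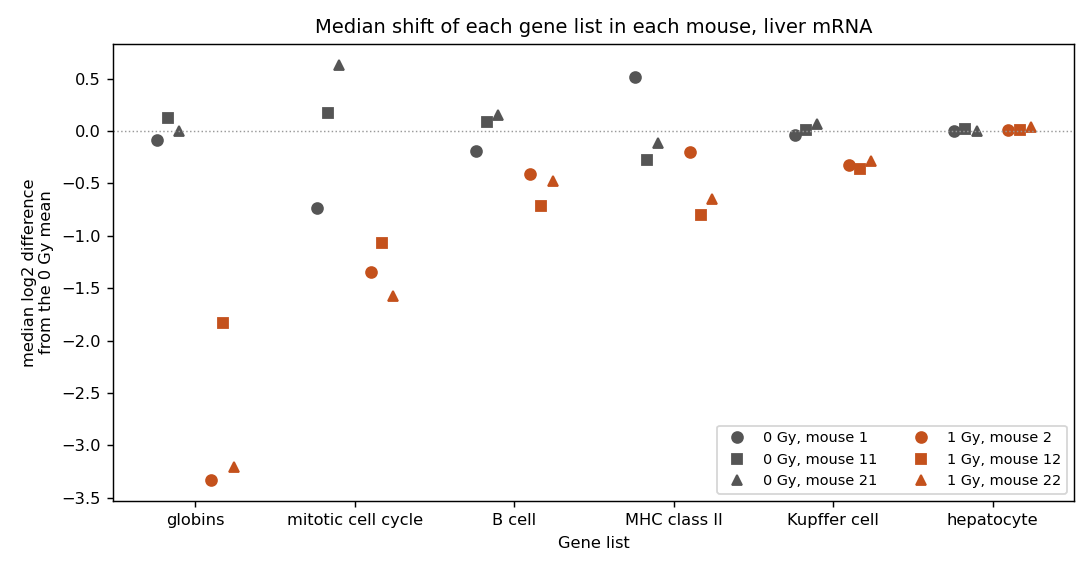
Median log2 difference from the 0 Gy mean (vertical axis) of the genes of 6 lists (horizontal axis) in single mice, grey for 0 Gy and orange for 1 Gy, with 1 marker shape per mouse. In the globin list the 1 Gy mice lie at -3.33, -1.83 and -3.21, all below the controls, and in the hepatocyte list all 6 mice lie between 0 and 0.04.

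The remaining lists concern metabolism and stress, again against 4.14% of all genes lower and 3.95% higher. By the brightest probe of each gene, no lipogenic, cholesterol synthesis, PPAR alpha or immediate early gene passed an unadjusted p of 0.05 in the 14, 16, 18 and 14 genes tested. Among their other probes, one of the lipogenic gene Pnpla3 was 1.31 higher with overlapping groups (limma adjusted p = 0.557) and one of Acaca, not above background on any array, was 0.66 higher (limma adjusted p = 0.627). Of 14 genes, 4 glucocorticoid responsive ones were lower and 1 higher, with Pck1, the enzyme of gluconeogenesis, at -0.41 (limma adjusted p = 0.555). Of 13 NRF2 targets, 4 were higher, among them Nqo1, a quinone reductase (0.60 higher, limma adjusted p = 0.596). Of 16 cytochrome P450 genes, 2, Cyp2b10 (0.48 higher) and Cyp2b9 (0.49 higher), were higher. In the remaining lists, 1 gene was lower and 1 higher in each of the circadian, unfolded protein response, growth hormone and nuclear non-coding lists, of 13 to 16 genes each, shares near those of all genes. The last of these held Lockd, a transcript next to Cdkn1b, which had a log2 fold change of -1.62 (limma adjusted p = 0.276).

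The next dose, 2 Gy, was compared directly with 1 Gy, without the controls. Of 38362 probes, 0 (0%) were called in limma, and 3994 had an unadjusted p below 0.05. The smallest adjusted p, 0.0714, belonged to Plet1, which differed by -0.91 at 2 Gy, and Cep55, a protein of daughter cell separation, which was 1.56 higher. The count was 26 without 2 Gy mouse 3, 16 without 2 Gy mouse 23, 14 without 1 Gy mouse 2, 3 without 1 Gy mouse 22 and 1 without 2 Gy mouse 13. The array of 2 Gy mouse 23 was on another slide than the other 2 Gy and 1 Gy arrays, and with slide as a term 13 probes were called. Cyp26b1 stood at 7.57, 9.62 and 7.48 in the 2 Gy mice, all above the 1 Gy mice, a difference of 2.88 (SE 0.546, limma adjusted p = 0.143). Its mean was 8.79 at 4 Gy, 8.93 at 8 Gy and 8.96 at 12 Gy, close to the control mean of 8.81. Saa1 was 18.30, 18.08 and 18.34 at 2 Gy, 2.10 above 1 Gy (SE 0.401, limma adjusted p = 0.143). Hbb-bt differed by -2.00 between 2 Gy and 1 Gy (SE 0.448, limma adjusted p = 0.204), and Serpina9, which is used by germinal centre B cells, had a log2 fold change of -2.67 (limma adjusted p = 0.126). By list, 5 of 7 globins, 4 of 14 B cell genes, 6 of 14 lipogenic enzymes, 4 of 14 unfolded protein response genes and 3 of 13 growth hormone genes were lower at an unadjusted p below 0.05, against 4.95% of genes. Of 16 acute phase genes 7 were higher, as were 5 of 14 glucocorticoid responsive genes, 4 of 18 growth arrest p53 targets, 4 of 16 circadian genes and 3 of 14 Kupffer genes, against 5.57% of genes. In the other lists at most 2 genes passed in either direction.

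Lungs of the same doses, normalized together with the livers, were used to see which liver changes were also present in another organ. The test of the difference between lung and liver called 1 of 47376 probes (0.00211%), Matk, a kinase of blood and nerve cells, with 1852 probes at an unadjusted p below 0.05. Matk differed by 0.64 in liver and by -0.73 in lung, a difference of -1.37 (SE 0.204, limma adjusted p = 0.0156). The number called was 0 without liver control mouse 11 or 21 or lung control mouse 1 or 21, 10 without liver 1 Gy mouse 12, 8 without liver 1 Gy mouse 2, 3 without liver 1 Gy mouse 22, lung control mouse 11 or lung 1 Gy mouse 12, and 2 without lung 1 Gy mouse 22. With the sample number as a block in limma its adjusted p was 0.392. Globins were measured in both organs. The brightest Hba-a1 probe differed by -0.49 in lung and -2.75 in liver, a difference of 2.25 (SE 0.463, limma adjusted p = 0.445), which was past the threshold only with the sample number as a block (adjusted p = 0.0326). In lung this probe stood at 17.71, 17.65 and 17.74 in the controls and at 16.59, 17.75 and 17.27 at 1 Gy, so the groups overlapped. The other Hba-a1 probe differed by -1.19 in lung and -2.58 in liver, and the lung values of Hbb-b1 and Hbb-b2 were -1.63 and -1.71. Hbb-bt fell by 2.11 in lung (limma adjusted p = 0.0272). Tbata differed by -0.02 in lung and Gm35472 by 0.02, against 1.25 and 0.99 in liver, and neither difference passed (limma adjusted p = 0.445 for both). Cdkn1a rose by 1.96 in lung (SE 0.219, limma adjusted p = 3.7e-05) and by 2.41 in liver. Zdhhc22 fell by 2.22 in lung (limma adjusted p = 0.0181), and Map4k1 fell by 1.12 (limma adjusted p = 0.0225).

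Cyp26b1 fell in lung too. Its log2 intensity in the joint normalization was 10.14, 11.09 and 9.98 in control lungs and 7.25, 7.45 and 6.99 at 1 Gy, a difference of -3.18 (SE 0.451, limma adjusted p = 0.000854). At 2 Gy it was 8.78, 9.95 and 8.32 in lung. The lung minus liver difference in its change was 0.35 (SE 0.638, limma adjusted p = 1). The labels do not say whether the liver and lung of one number came from one mouse. Ordered by Cyp26b1 level, the numbers stood in the same order in liver and lung at each of 0, 1 and 2 Gy. The same held for Zdhhc22 and Hbb-bt. Hbb-b2 kept the order at 0 and 1 Gy but not at 2 Gy, Phlda3 at 0 Gy only and Hamp at none of these doses. These genes were picked after their values were seen, and the orders do not settle whether a number marks one mouse.

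**Figure D4:**
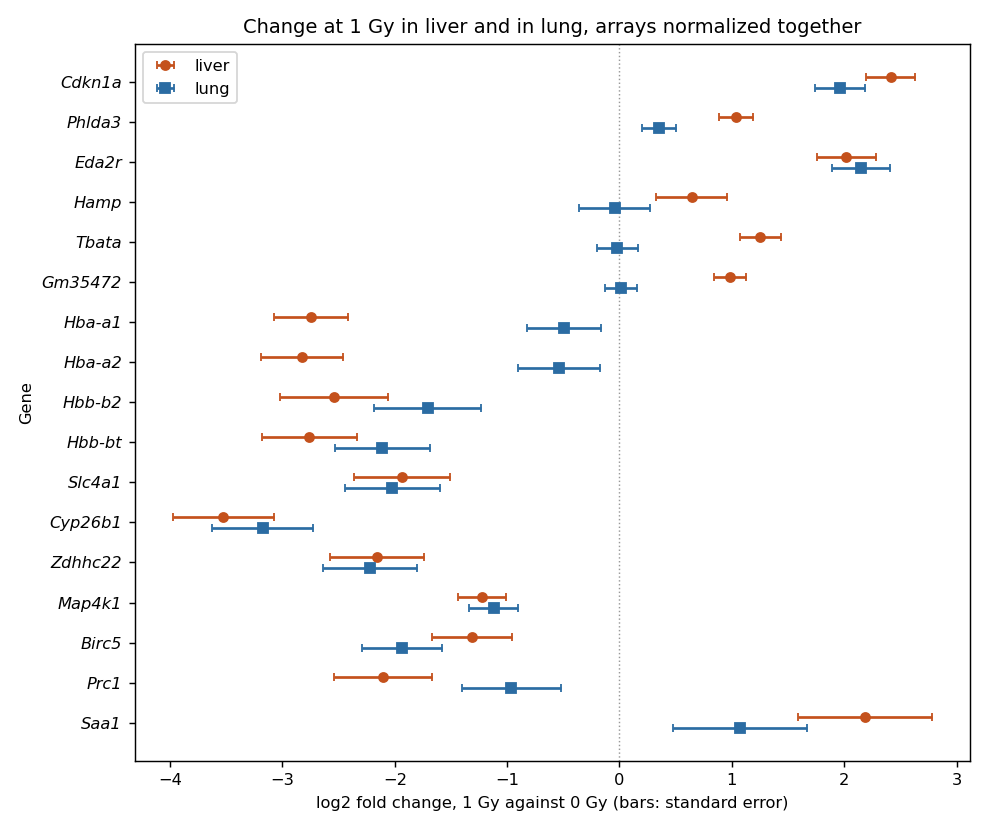
Log2 fold change, 1 Gy against 0 Gy (horizontal axis), of 17 genes (vertical axis) in liver (orange circles) and lung (blue squares), with standard errors as bars, from arrays normalized together, 3 mice per group. Cyp26b1 and Zdhhc22 lie close together in both organs, while the plotted Hba-a1 probe lies at -2.75 in liver and -0.49 in lung and Hbb-bt, another globin, at -2.76 and -2.11.

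The miRNA arrays of the livers were examined for the miRNAs that accompany these mRNAs, and their mature sequences are shown with the seed, bases 2 to 8, in capitals (RefSeq). miR-34a is induced by p53, miR-451a and miR-144 are made in red cell precursors, and miR-142a is made in white blood cells. The 4 seeds differ. They lie at chr4:150068473-150068494, chr11:78073186-78073207, chr11:78073047-78073066 and chr11:87756903-87756925 in GRCm38.p6, in the order given, all on the plus strand.
mmu-miR-34a-5p: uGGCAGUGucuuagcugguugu
mmu-miR-451a: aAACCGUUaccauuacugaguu
mmu-miR-144-3p: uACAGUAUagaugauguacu
mmu-miR-142a-3p: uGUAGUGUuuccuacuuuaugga

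None of 390 miRNA probes was called by limma (0%), and 28 (7.18%) had an unadjusted p below 0.05, 8 lower and 20 higher. miR-34a-5p was 8.73, 8.96 and 9.22 in the controls and 9.14, 9.73 and 9.67 at 1 Gy, so the groups overlapped. It was 0.54 higher (SE 0.172, limma adjusted p = 0.508). miR-451a was 12.11, 11.89 and 11.96 in the controls and 11.63, 11.47 and 11.63 at 1 Gy, with no overlap. It had a log2 fold change of -0.41 (SE 0.143), miR-144-3p had a log2 fold change of -0.38 and miR-142a-3p had a log2 fold change of -0.34, each with a limma adjusted p of 0.508. The second probes of miR-34a-5p, miR-451a, miR-144-3p and miR-142a-3p differed by 0.47, -0.33, -0.33 and -0.36. Other miRNAs of white blood cells differed less, with miR-142a-5p at -0.14 and -0.13 by probe and miR-223-3p at -0.07 and -0.06. The probes of miR-146a-5p stood at -0.19 and -0.07 and those of miR-342-3p at -0.11 and -0.07, and miR-181a-5p differed by 0.02. Among other miRNAs of red cell precursors, miR-144-5p differed by -0.14 and miR-486a-5p by -0.12 and -0.05. The controls and 1 Gy mouse 12 shared a slide, while 1 Gy mice 2 and 22 were on another. With slide as a term the differences were 0.82 for miR-34a-5p, -0.48 for miR-451a, -0.53 for miR-144-3p and -0.30 for miR-142a-3p. The 2 probes of the hepatocyte miRNA miR-122-5p differed by 0.13 and 0.04 (limma adjusted p = 0.786 and 0.877). Within the first slide 1 Gy was a single mouse, so no test within a slide was made.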

How the data were processed

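RNA of liver was hybridised to 1-colour Agilent arrays, and the intensity values were deposited by the authors as Feature Extraction spot tables with median spot and background signals, processed signals and flags. The series tables of scaled intensities that the authors also deposited were taken to log2 and used as an alternative only. The spot signals were background corrected by normexp (offset 0), control spots were removed, outlier spots were set to missing, and 18 liver arrays were quantile normalized in limma 3.58.1 (R 4.3.3). Spots of a probe were averaged on the log2 scale. A probe entered the tests if any of the 18 arrays had it well above background (0.5 or more of its spots). limma fitted 6 dose groups with eBayes, and p values were adjusted by the Benjamini-Hochberg method over all tested probes. For lung minus liver, 36 liver and lung arrays were normalized together and fitted as 12 groups. The 18 liver miRNA arrays were fitted separately by limma. Calls required |log2FC| > 1 together with an adjusted p below 0.05. Of the tested probes 25767 had a gene symbol from RefSeq, giving 18160 genes by their brightest probe. Named were all probes with an adjusted p below 0.05, probes among the 10 smallest p in each direction, and the members of each list past the threshold or with the smallest p. Some, not all, miRNAs of the miRNA lists were named. A few list members that did not pass (Mdm2, Bbc3, Bmp6, Slc40a1, Rrm2, Rps27l, Gtse1) were added after their values were seen. Members, lists and motifs were chosen with earlier results of these data known. Replicates are samples with separate labelled numbers, and p values measure the spread between these samples. Folds written as at least take, per array of the dim group, the higher of the probe and the lowest signal well above background. The number of arrays limits the precision. limma was checked on simulated data. A few genes are not reported here.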

Additional observations from a re-analysis of the deposited data

Results flagged for a closer look

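Matk was the only probe called for a difference between lung and liver in its change at 1 Gy in the limma fit without a block. The difference was -1.37 (adjusted p = 0.0156), with a log2 fold change of 0.64 in liver and -0.73 in lung. With the sample number as a block its adjusted p was 0.392, and an Hba-a1 probe was called instead (2.25, adjusted p = 0.0326). Leaving out liver control mouse 11 or 21, or lung control mouse 1 or 21, left 0 called probes, and leaving out liver 1 Gy mouse 12 left 10, mouse 2 left 8 and mouse 22 left 3.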

How the results depend on the processing

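The 13 probes called at 1 Gy were 19 with a background offset of 50, 16 with 75th percentile scaling, 18 with the processed signal, 18 with the deposited series values, 16 with array weights, 15 per transcript and 12 with outlier spots kept. The number was 7 with no filter on dim probes, 30 with a stricter filter, 43 with liver and lung together, 6 with slide as a term, 22 with an intensity trend and a robust prior, and 0 with the 0 and 1 Gy arrays alone, where the fit has fewer samples. Leaving out each mouse in turn gave 2 to 57. For 2 Gy against 1 Gy the count of 0 became 8 with an offset of 50 and 13 with slide as a term, and stayed 0 with 75th percentile scaling and with no filter. Leaving out each mouse gave 0 to 26. For lung minus liver the 1 call became 2 with an offset of 50, and leaving out each mouse gave 0 to 10. The paired fit with the sample number as a replicate block gave 1 called probe, Hba-a1, and same-numbered liver and lung deviations correlated at -0.033 to 0.021 over all probes. These values do not show a pairing, and they do not settle whether a number marks one mouse. The miRNA count stayed 0 in 10 alternatives. Over the 13 called probes, no direction turned in 247 values, and 82 lost the call. Cdkn1a and Zdhhc22 kept an adjusted p below 0.05 in 18 of 19 alternatives. The second Birc5 probe reversed from 0.57 to -0.58 without 1 Gy mouse 12, and leaving out each mouse in turn gave -0.58 to 1.79. The cause of these changes was not tested. The Kupffer list went from 6 to 2 members with liver and lung together, and the B cell list from 5 to 8 with an offset of 50, with the 0 and 1 Gy arrays alone, with slide as a term and with array weights. Array signal over background limits the dimmest genes.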

Other observations

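The immediate early genes had a wide spread among mice. Their median deviation from the control mean was -0.81, -0.05 and 0.88 in the controls and -0.62, -0.01 and 1.07 at 1 Gy.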
